A study of Mus musculus with 15 samples.

Results

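RNA polymerase II (Pol2) was mapped by chromatin immunoprecipitation and sequencing (ChIP-seq) in αTN4 cells, and 2999 of its 17204 peaks (17.4%) are described here. Each lay more than 2 kb from every protein-coding transcript start and from every H3K4me3 peak of the same cells, and overlapped an H3K4me2 peak of those cells by at least 1 bp. The sites were thus chosen by the Pol2, H3K4me2 and H3K4me3 peak calls of control cells, and values from these 3 lists are given as descriptions only. Of the other Pol2 peaks, 12470 (72.5%) lay within 2 kb of a protein-coding start and are called promoter Pol2, 1371 were near H3K4me3 only, and 364 (2.12%) were as distal as the sites but without H3K4me2. The last peaks left out by the distance to a start lay 1956 to 1989 bp away, near Ndst1, Plec and Nfatc1, with Pol2 folds of 5.14, 5.59 and 8.80. The first ones taken in lay 2039 to 2049 bp away, near Cdsn, Pwwp2b and Gm6970, with folds of 4.04, 5.14 and 3.75.

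The αTN4 line is of mouse lens epithelium, and SV40 T antigen was used to transform it. All its libraries came from lines stably carrying a lentiviral shRNA after 14 days of puromycin, either a control shRNA or one against Pax6 (the Pax6 knockdown, KD). Pol2 and Pax6 were analysed in control cells alone, H3K4me1, H3K4me2 and H3K4me3 in control and KD cells, and H3K4me2 also in whole lenses of newborn CD-1 mice at postnatal day 1. The labels give 1 library per condition for each list, although the peak names of control H3K4me2 hint at pooled replicates. No difference below therefore carries a test. Each share has a 95% Wilson interval that covers counting error alone and counts sites, which are not replicates. One label field exchanged the Pol2 and Pax6 antibodies. The lists were assigned by their titles, and 12470 of 17204 Pol2 peaks but 53 of 504 Pax6 peaks lay within 2 kb of a coding start. Of 27 crystallin and fibre cell genes, 3 had Pol2 and 3 had H3K4me3 within 2 kb of a start. Pol2 lay there at 10681 of all 22238 protein-coding genes. Of 13 lens markers 8 had H3K4me3 there, and the share of all genes with H3K4me3 there was not counted. The starts of Foxe3, Cryba1, Crybb2, Crygs and Cdh1 lacked H3K4me3.

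Pol2 is loaded not only at promoters but also at active enhancers, where it makes short, unstable enhancer RNAs. Enhancers carry H3K4me1 and H3K4me2 with little H3K4me3, while active promoters carry H3K4me3. Pax6 is a paired domain and homeodomain transcription factor needed for lens formation. The small nuclear RNAs (snRNAs) of the spliceosome are Pol2 products too, except U6, which RNA polymerase III makes, and their short genes are not protein-coding.

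The name enhancer did not cover every site. The first 16 sites in order of Pol2 fold all lay within 2 kb of an annotated snRNA or small nucleolar RNA (snoRNA) start, so the set is called distal Pol2 sites below. The fold is the peak caller's enrichment at the peak summit over its control.

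The following 300 bp windows are centred on Pol2 summits and read 5′ to 3′ on the plus strand of mm9. The first pair shows the 2 strongest sites, at a U2 snRNA gene and a U3 snoRNA gene, with the bases of the annotated RNA in capitals. The U2 gene is on the minus strand and the U3 gene on the plus strand, so in both windows the summit lay just downstream of the RNA's 3′ end.
U2 site near Rdm1, chr11:101506799-101507098: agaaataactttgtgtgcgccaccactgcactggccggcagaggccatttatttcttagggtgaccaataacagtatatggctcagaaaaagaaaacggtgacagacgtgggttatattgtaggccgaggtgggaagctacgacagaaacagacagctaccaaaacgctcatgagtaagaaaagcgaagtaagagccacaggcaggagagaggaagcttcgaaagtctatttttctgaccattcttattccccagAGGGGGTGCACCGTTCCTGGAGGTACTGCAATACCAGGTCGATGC
U3 site in a Tex14 intron, chr11:87275879-87276178: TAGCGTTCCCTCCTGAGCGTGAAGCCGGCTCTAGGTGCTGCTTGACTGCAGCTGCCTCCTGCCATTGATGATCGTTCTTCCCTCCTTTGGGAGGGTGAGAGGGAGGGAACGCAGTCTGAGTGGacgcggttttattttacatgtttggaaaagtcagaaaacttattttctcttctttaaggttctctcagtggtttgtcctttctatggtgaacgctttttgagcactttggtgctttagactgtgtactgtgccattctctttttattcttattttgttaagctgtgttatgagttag

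The next 3 windows are sites with a strong Pax6 peak. Capitals mark matches to the AP-1, Ets, Meis, TEAD, Runx and Sox words and not to the GC box or the other words added later. They were TGTGGT for Runx at base 82 near Gmpr, GGAATG for TEAD at base 254 near Tmem2 and CTGTCA for Meis at base 38 near Plekha1. The Pax6 summit lay 113 bp before the Pol2 summit near Gmpr, 140 bp before it near Tmem2 and 201 bp after it near Plekha1, which is outside that window.
Site near Gmpr, chr13:45565177-45565476: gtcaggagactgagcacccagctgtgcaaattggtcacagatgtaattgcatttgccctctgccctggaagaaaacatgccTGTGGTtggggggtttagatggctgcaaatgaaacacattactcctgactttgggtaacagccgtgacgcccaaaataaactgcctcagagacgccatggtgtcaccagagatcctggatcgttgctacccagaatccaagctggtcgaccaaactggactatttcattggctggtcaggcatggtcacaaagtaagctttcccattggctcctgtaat
Site near Tmem2, chr19:21957059-21957358: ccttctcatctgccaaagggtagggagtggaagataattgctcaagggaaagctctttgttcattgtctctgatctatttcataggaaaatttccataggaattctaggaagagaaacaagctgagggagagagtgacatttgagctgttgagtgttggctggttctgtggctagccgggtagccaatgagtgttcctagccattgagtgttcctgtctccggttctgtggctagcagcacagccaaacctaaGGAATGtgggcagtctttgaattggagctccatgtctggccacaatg
Site near Plekha1, chr7:137981401-137981700: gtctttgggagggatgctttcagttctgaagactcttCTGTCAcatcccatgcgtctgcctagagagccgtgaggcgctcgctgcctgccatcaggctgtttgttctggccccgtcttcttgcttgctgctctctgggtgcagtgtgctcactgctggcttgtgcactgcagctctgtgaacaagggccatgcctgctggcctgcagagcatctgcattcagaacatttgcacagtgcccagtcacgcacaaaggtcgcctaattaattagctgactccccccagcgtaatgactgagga

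The last pair was chosen after the values were seen, to show both kinds of sequence met below. The site in an Mb intron had the AP-1 word at base 66 (TGACTCA) and a Runx word at base 193, both in capitals, and no H3K4me2 peak in lens. The site near Phf2 held 23 CG pairs, in capitals, and had lens H3K4me2 of fold 19.9.
Site in an Mb intron, chr15:76867165-76867464: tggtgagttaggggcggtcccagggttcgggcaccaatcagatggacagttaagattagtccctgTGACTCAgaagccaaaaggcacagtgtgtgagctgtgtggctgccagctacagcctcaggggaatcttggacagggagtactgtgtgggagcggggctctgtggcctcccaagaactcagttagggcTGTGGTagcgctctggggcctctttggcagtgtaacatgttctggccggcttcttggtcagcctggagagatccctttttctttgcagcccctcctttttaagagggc
Site near Phf2, chr13:48973845-48974144: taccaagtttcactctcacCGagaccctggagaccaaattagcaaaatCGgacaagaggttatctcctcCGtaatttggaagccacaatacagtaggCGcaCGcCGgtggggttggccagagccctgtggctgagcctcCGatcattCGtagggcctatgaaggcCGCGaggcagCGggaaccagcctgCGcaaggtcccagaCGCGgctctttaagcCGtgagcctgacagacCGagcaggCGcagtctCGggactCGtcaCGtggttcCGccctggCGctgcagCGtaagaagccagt

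Most distal Pol2 sites were weak and narrow, and a small group at genes for non-coding RNAs was not. The median Pol2 fold was 5.38 (interquartile range 4.40 to 7.09, range 1.25 to 92.7), against 12.2 at promoter Pol2 (7.09 to 18.3), and the median width was 413 bp against 710.5 bp. The Pol2 summit lay inside an H3K4me2 peak at 2885 sites (96.2%), and the median distance between both summits was 262 bp, against 571 bp at promoters. H3K4me2 itself had a median fold of 13.0. At 162 sites (5.40%) the only H3K4me2 peaks overlapped were ones that themselves reached within 2 kb of a coding start or an H3K4me3 peak.

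Within 2 kb of an annotated non-coding start lay 273 sites (9.10%), against 42.2% of all Pol2 peaks. These included 77 starts of processed transcripts, 61 of long intergenic RNAs, 25 of antisense RNAs, 20 of snRNAs, 17 of microRNAs and 10 of snoRNAs. The 30 sites at snRNAs and snoRNAs (1.00%, against 1.61% of all Pol2 peaks) had a median fold of 45.7, ranging from 3.13 to 92.7, and made up 18 of the 40 sites with a fold of 20 or more. No Pol2 peak of the library had a higher fold than the strongest site, at a U2 gene near Rdm1 on chromosome 11 (92.7).

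U2 and U3 genes each formed a local group. U2, which pairs with the intron branch point, had further sites of fold 76.1 at chr11:101518979-101521141 and 75.5 at chr11:101502541-101504717. U3, which guides ribosomal RNA processing, had 4 sites along Tex14 introns, of fold 56.7, 73.1, 76.5 and 83.4. U4 near Sirt4 had 75.4, the minor spliceosome's U11 near Taf12 had 65.2, U5 near Kif2c had 64.3 and U1 near Gm16382 had 62.4 and 49.2. The 4 sites near U6 starts had 5.38, 6.04, 6.33 and 9.29, and low folds were also found near other U1 starts (5.49 and 8.34), near a U2 start (4.65) and near snoRNA starts (3.13 and 3.91). The copies of one gene share sequence, so that a peak at one may hold reads of another. Among the sites of fold 20 or more, the share of 36-base words found at another of them was 93.2% and 80.6% at U1, 14.8 to 39.7% at U2, 23.8 to 39.1% at U3, 0.14% at U11 and 0% at U4.

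**Figure D1:**
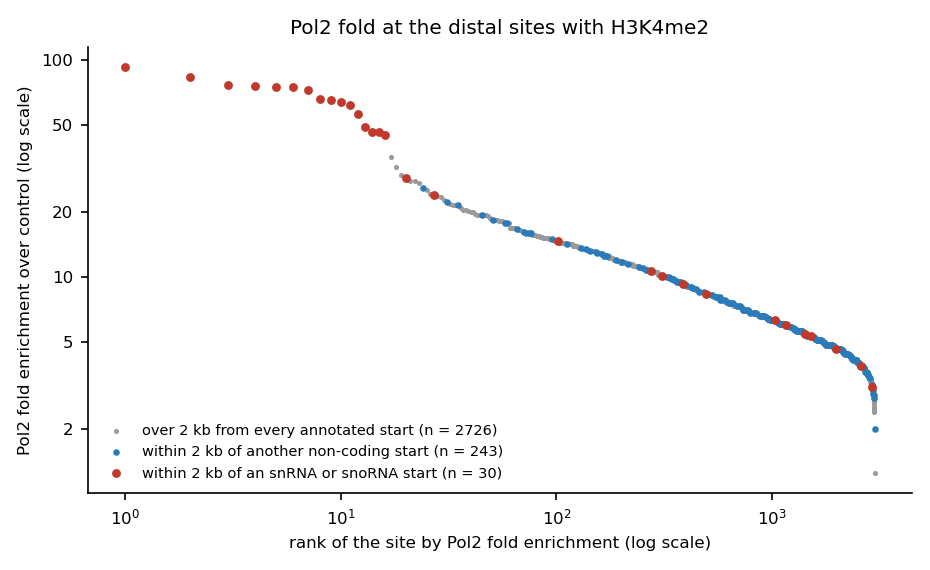
Pol2 fold enrichment (vertical, log scale) against the rank of each of the 2999 distal Pol2 sites (horizontal, log scale), 1 point per site, coloured by the annotated start within 2 kb. The snRNA and snoRNA sites (n = 30) hold the first 16 ranks, and most sites away from every start lie under a fold of 10.

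Away from every annotated start, the highest folds were lower. An intron of Arid1b, a subunit of the BAF chromatin remodelling complex, held the strongest such site (chr17:5189189-5190599, fold 35.7), 152 kb from a coding start. High folds were also found at sites near Phf2, a histone demethylase (32.1), in a C87436 intron (29.6), near Epcam, an epithelial adhesion protein (27.6), near Amn1 (27.6), near Nhp2 (27.2), near Tpt1 (24.2), in an intron of the myoglobin gene Mb (23.7) and near Zfp217 (23.5). Of these, those near Amn1, in Mb and near Zfp217 had no H3K4me2 peak in lens. A row of microRNA genes on chromosome 7 carried 4 sites within 100 bp of the annotated starts, with folds of 17.9 at Mir344c, 7.81 at AC091333.3, 6.60 at Mir344 and 5.62 at AC107641.3. The widest site spanned 3920 bp near 6430527G18Rik (fold 8.87), and the next widest spanned 3390 bp near Wnt10a, a Wnt ligand (fold 11.9).

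The sites were spread over many genes, and a minority of genes had several. The Pol2 summit lay inside a protein-coding gene at 1108 sites (36.9%, 35.2 to 38.7%), 974 in introns and 134 in exons. This compares with 63.1% of all Pol2 peaks, most of which were promoter Pol2. It was 37.6% for distal Pol2 without H3K4me2, and 45.0% for the H3K4me2 summits of distal H3K4me2 peaks without Pol2. Protein-coding genes cover 37.7% of the chromosomes counted. The median distance to a coding start was 21.2 kb, 778 sites (25.9%) lay over 50 kb away, and 189 (6.30%) were within 2 kb of a coding gene's end, against 11.3% of all Pol2 peaks. By the gene that held it or else the nearest start, 1918 of 22238 protein-coding genes (8.62%) had a site, and among the 10681 genes with promoter Pol2 11.9% did. Such an assignment says nothing of which gene a site serves, and long genes collect more of them.

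Of these genes, 1331 had 1 site and 110 had 4 or more. Gm20388 had 18, but it is a read-through model of 4434.9 kb. Next came 1700001O22Rik with 15 and Vmp1, an autophagy membrane protein, with 13. Wisp1, a secreted matricellular protein, had 12, and Cebpb, a bZIP transcription factor, 2610203C20Rik and 6430527G18Rik had 10 each. The zinc finger gene Zfp217 and Azin1, an antizyme inhibitor, had 9 each. Genes with 8 were Cstad, Zmiz1, Col5a1, Tpra1, Zfp36l2 and Pmepa1. None of the 13 Vmp1 sites and none of the 12 Wisp1 sites had lens H3K4me2, whereas all 8 sites of Pmepa1, a gene that restrains TGF-β signalling, and all 8 of Cstad did, beside 42.0% of all sites. KD cells had an H3K4me1 island at every Vmp1 and Wisp1 site, beside 63.2% of all sites, and 2610203C20Rik had islands at 7 sites in control and 1 in KD cells. All 12 Wisp1 sites and 9 of the 13 Vmp1 sites lay each in 1 local group, so they are not independent.

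Joined wherever neighbouring summits lay within 12.5 kb, the sites formed 2270 groups, of which 1814 were single sites and 456 held 1185 sites. The group with the most sites lay at chr2:30547116-30579257 beside 1700001O22Rik and Cstad, with 13 sites in 32.1 kb, of which 11 had lens H3K4me2. The Wisp1 group, at chr15:66693366-66730052, had 12 sites in 36.7 kb with folds of 3.02 to 5.80. Further groups held 9 sites each at Cebpb, Vmp1 and Azin1.

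Among the gene lists, those for the cell skeleton, the matrix and epithelial or mesenchymal state had sites most often. The lists were chosen with earlier results of these data known, so this order is a description only. The counts below are not adjusted for gene length or for neighbouring sites. Of 27 actin and adhesion genes 13 had a site, of 20 matrix genes 11, of 13 epithelial and mesenchymal genes 7 and of 21 TGF-β and BMP genes 10, against 8.62% of all coding genes and 11.9% of those with promoter Pol2. The actin and adhesion genes had 39 sites, led by Ahnak (6), the non-muscle myosin heavy chain Myh9 (5), Lmna (5), Actb (4, highest fold 16.9) and Vim (4, highest fold 15.2). The matrix genes had 26, with 8 at Col5a1 and 4 at Col1a1. Snai1, a repressor of epithelial genes, had 5, Epcam 3 and Zeb1 a single one of fold 13.2. Id3, an inhibitor of bHLH factors and BMP target, had 4 and Tgif1, a Smad corepressor, 4.

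A smaller share of genes had sites in the lens lists than in those 4 lists. Of 16 lens transcription factor genes 3 had sites (18.8%, beside 8.62% and 11.9% above), which were Gata3 with 4, Sox2 with 3 and Meis2 with 1. Of 27 crystallin and fibre genes 2 had sites (7.41%, near the 8.62% of all coding genes). These were the β-crystallin gene Crybb1 with 2 and the lens nuclease gene Dnase2b with 1, and none of the 3 sites had lens H3K4me2. The remaining lists gave 5 of 17 Ets genes (29.4%) and 6 of 16 FGF and ERK feedback genes (37.5%). They also gave 6 of 14 YAP and TEAD genes (42.9%) and 2 of 13 AP-1 genes (15.4%), Fosb and Jun. Of 10 genes that the study had singled out from these same libraries, which makes them no independent set, 4 had sites, at Farp1, Tshz2, Zfp536 and Csf1. Plekha1, another of the 10, was the nearest start to 3 sites, which the assignment gave to Fgfr2 through the long model named below. Of 10 marker genes of other cell types 2 had a single site each, Cd34 and Pecam1, and 1 had H3K4me3 at its start.

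Fewer distal Pol2 sites than promoters were shared with the newborn lens. A lens H3K4me2 peak overlapped 1261 sites (42.0%, 40.3 to 43.8%), against 95.5% of promoter Pol2, 8.52% of distal Pol2 without H3K4me2 (31 of 364) and 83.3% of all Pol2 peaks. The lens holds epithelium and fibre cells, so a mark in few cells and a weak mark in all of them cannot be told apart. Stronger sites were shared more often. By quartile of Pol2 fold the share was 29.3%, 34.8%, 44.8% and 58.2%. At snRNA and snoRNA starts it was 21 of 30.

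Pol2 also went with lens H3K4me2 among distal H3K4me2 peaks taken as the unit. Of 2647 such peaks with a distal Pol2 site 45.0% (43.1 to 46.9%) were marked in lens, against 14.8% (14.4 to 15.1%) of 40538 without Pol2. Those with Pol2 had stronger and wider H3K4me2, with a median fold of 12.2 against 5.18 and a width of 1613 against 641 bp. With the peaks lacking Pol2 weighted to the same mix of fold and width quartiles, their share was 24.9%. The top fold quartile, from 7.88 up, held 2169 of the 2647 peaks with Pol2, so folds can still differ within it. Within each quartile of fold the share with Pol2 was higher, from 16.1% against 7.65% in the lowest to 49.7% against 29.3% in the highest.

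**Figure D2:**
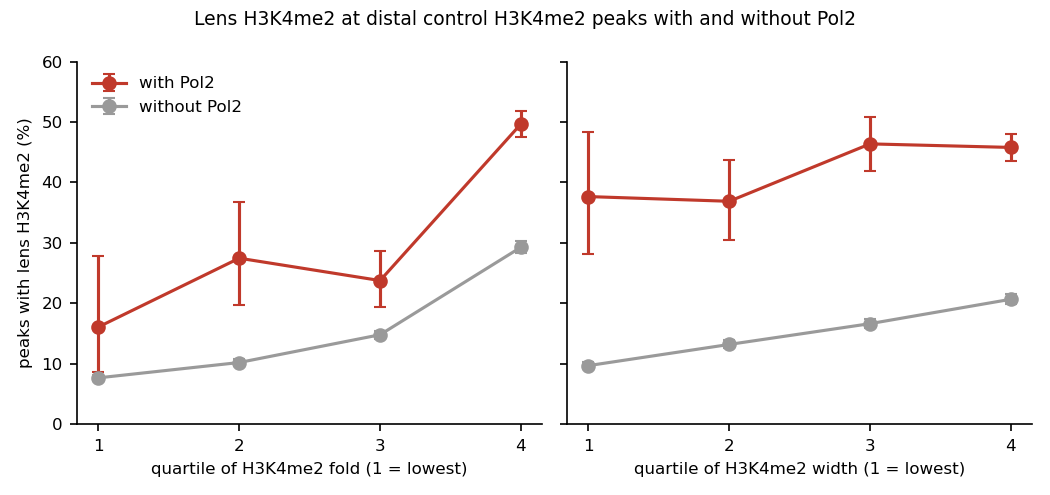
Share of distal control H3K4me2 peaks that overlap a lens H3K4me2 peak (vertical, percent), with Pol2 (red) and without (grey), by quartile of the fold (left) or width (right) of the control H3K4me2 peak, with 95% Wilson intervals as bars. The share with Pol2 is the higher one in each quartile, for width from 37.6% against 9.67% in the lowest to 45.8% against 20.7% in the highest.

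The DNA at the summits differed between sites shared with lens and sites that were not. The AP-1 word TGANTCA, bound by Fos and Jun dimers, was present on either strand in 793 of the 2999 windows of 300 bp (26.4%, 24.9 to 28.1%). In windows 2 kb to each side it was present in 9.10%, at promoter Pol2 in 5.26%, at all Pol2 peaks in 9.38% and at distal H3K4me2 peaks without Pol2 in 17.9%. Windows of the peaks without Pol2 were centred on H3K4me2 summits, here and below. At the sites these summits lay a median of 262 bp from the Pol2 summits, so the 17.9% mixes another centre with the lack of Pol2. Matches per kb and site were 1.12 and 1.14 in the bins from 101 to 200 bp before and 100 to 199 bp after the summit and 0.92 to 0.94 in the bins between them. An AP-1 word lay in 592 of 1738 windows without lens H3K4me2 (34.1%) and in 201 of 1261 with it (15.9%), while 2 kb away both had it equally often (9.09% and 9.12%). The gap was present in each quartile of GC content, with 31.8%, 31.1%, 40.1% and 34.2% against 13.8%, 19.2%, 17.3% and 14.1%. It was not particular to Pol2 sites, since distal H3K4me2 peaks without Pol2 had the word in 19.3% without and 9.98% with lens H3K4me2.

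CG content went the other way. The ratio of observed to expected CG pairs had a median of 0.24 at the sites, 0.18 at 2 kb and 0.76 at promoter Pol2. It reached 0.6 in 208 windows (6.94%), and of these 195 (93.8%) had lens H3K4me2, against 38.2% of the rest. At distal H3K4me2 peaks without Pol2, in windows centred on H3K4me2 summits, the same shares were 68.7% and 13.7%. The Ets words CCGGAAG and AGGAAGT were found in 4.47% and 13.2% of windows, against 1.28% and 7.84% at 2 kb, and the GC box GGGCGG in 17.1% against 5.27%. The TEAD word GGAATG was in 21.1% against 15.4%. The Meis word CTGTCA (19.4% against 18.7%), the Sox word ACAATNG (8.37% against 8.64%) and the Runx word TGTGGT (21.7% against 23.2%) were about as frequent 2 kb away. A word match is a description of the sequence and shows no binding.

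**Figure D3:**
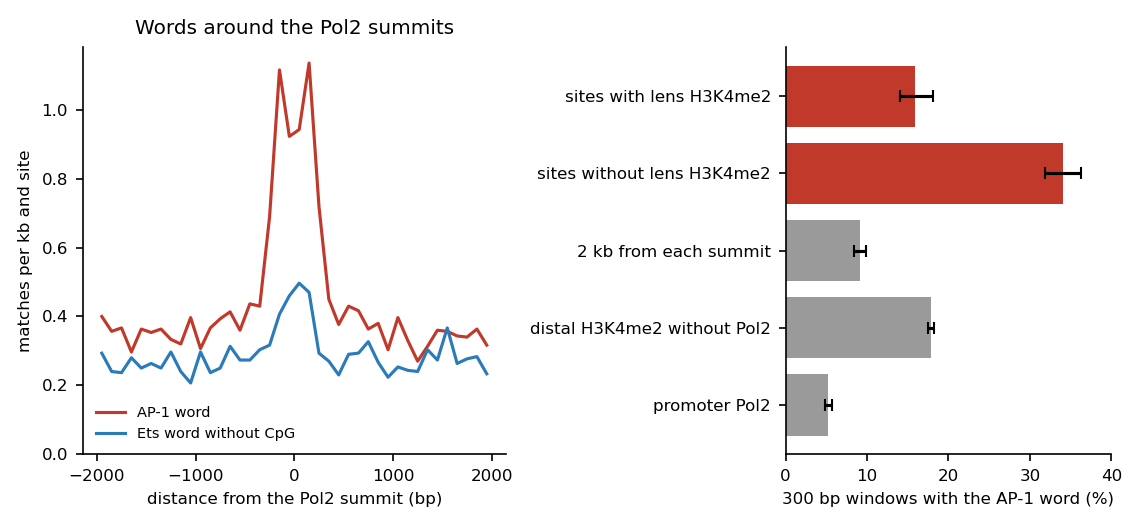
Left, matches of the AP-1 word and of the Ets word without CG per kb and site (vertical) by distance from the Pol2 summit in bp (horizontal) over the 2999 sites. Right, the share of 300 bp windows with the AP-1 word, with 95% Wilson intervals as bars. Sites without lens H3K4me2 stand at 34.1%, those with it at 15.9% and windows 2 kb away at 9.10%. Windows of distal H3K4me2 peaks without Pol2 are centred on H3K4me2 summits, the others on Pol2 summits or 2 kb from them.

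Few sites had a Pax6 peak. A Pax6 peak overlapped 55 sites (1.83%, 1.41 to 2.38%), against 0.27% of promoter Pol2, 0 of 364 distal Pol2 peaks without H3K4me2 (interval up to 1.04%) and 0.570% of all Pol2 peaks. The median distance from Pol2 to Pax6 summit was 147 bp (range 10 to 2436 bp). Short distances follow from the required overlap, as median widths were 499 bp for the Pol2 peaks of these sites and 182 bp for all Pax6 peaks. The Pol2 fold was alike with and without Pax6, at medians of 5.29 and 5.38. Lens H3K4me2 was present at 32 of the 55 (58.2%, 45.0 to 70.3%) and at 41.7% of the others. Of the distal H3K4me2 peaks with Pol2 2.64% had Pax6, against 0.60% of those without and 1.55% once weighted for fold and width.

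By the Pax6 q-value the leading site (chr7:137981408-137981654) lay 27.7 kb from the start of Plekha1, its nearest. The annotation also puts it in an intron of the FGF receptor gene Fgfr2, but only through a transcript model of 3009.1 kb that spans many genes, while every other Fgfr2 transcript ends far from it. It had a Pax6 fold of 18.2 and a Pol2 fold of only 3.69, with lens H3K4me2 of fold 10.5. Its neighbours 30.2 and 10.1 kb from that start had Pol2 folds of 4.05 and 4.40 and no Pax6. A Dlgap1 intron (chr17:71086721-71089129) followed with a Pax6 fold of 18.7 and a Pol2 fold of 8.09, and a site near Gmpr (chr13:45564687-45565506) with 16.8 and 9.54. The next had Pax6 folds of 10.9 in a Frmd4a intron, 12.2 at an exon of the cadherin gene Cdh23, 10.6 in an intron of the LIM kinase gene Limk2, 10.5 near Tmem2 and 10.3 near Phgdh. Of these 8, the one near Phgdh, a serine synthesis gene, had no lens H3K4me2.

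**Figure D4:**
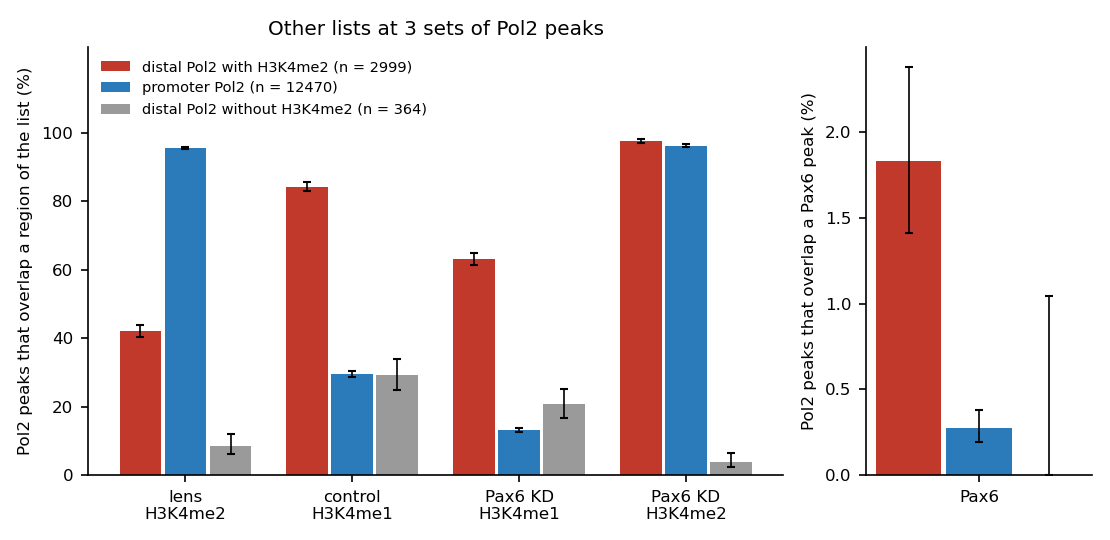
Share of Pol2 peaks (vertical, percent) that overlap a region of each list, for distal Pol2 sites (n = 2999), promoter Pol2 (n = 12470) and distal Pol2 without H3K4me2 (n = 364), with 95% Wilson intervals as bars. Lens H3K4me2 and H3K4me1 order the first 2 sets oppositely, and the Pax6 share, on its own axis, is 1.83% at the sites and 0.27% at promoter Pol2.

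Most sites lay in H3K4me1 islands, and most of these were called again after Pax6 knockdown. A control island overlapped 2525 sites (84.2%, 82.8 to 85.5%), against 29.6% of promoter Pol2 and 40.5% of all Pol2 peaks, and a KD island 1895 sites (63.2%, 61.4 to 64.9%, against 23.0%). Both were present at 1858 sites, the control island alone at 667, the KD island alone at 37 and neither at 437. An island was thus kept at 73.6% (71.8 to 75.3%) of the 2525 sites with a control island. Among peaks with a control island it was kept at 38.0% of 3685 at promoter Pol2 and 52.3% of 6961 over all Pol2. Of all control islands 46.2% were kept. The last share counts islands and the others count Pol2 peaks. The 2525 sites lay in 1999 distinct control islands, of which 1413 had a kept site. The KD list was the smaller one throughout, with 18417 islands and 1849269 reads in them against 38007 and 3289553 in control cells, and its part in the losses was not tested. Distal H3K4me2 peaks with Pol2 kept H3K4me1 in 73.1% and those without in 59.2%, which became 71.9% when weighted to the same mix of H3K4me2 fold and width quartiles.

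H3K4me1 was kept more often where control cells had more of it. In the quartiles of control ChIP reads, sites with lens H3K4me2 kept it in 21.5%, 65.6%, 88.3% and 94.3% and sites without in 38.9%, 82.0%, 93.8% and 95.8%, from totals of 63.9% and 79.6%. By quartile of Pol2 fold the share kept was 79.3%, 75.8%, 70.5% and 68.5%. Sites with a Pax6 peak kept it at 44 of 50 (88.0%, 76.2 to 94.4%), against 73.3% of the others. In the quartiles of control reads these were 3 of 7, 10 of 10, 15 of 16 and 16 of 17, beside 30.6%, 75.9%, 91.7% and 95.3% of the sites without Pax6. Sites with and without the AP-1 word kept it alike (74.0% and 73.4%). Those with a CG ratio of 0.6 or more had a control island in 54.3% and kept it in 43.4%, against 1809 of 2412 of the rest with one. With at least the median of 157 control reads the shares kept were 26 of 29 and 93.6%, and below it 27.4% and 55.1%.

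**Figure D5:**
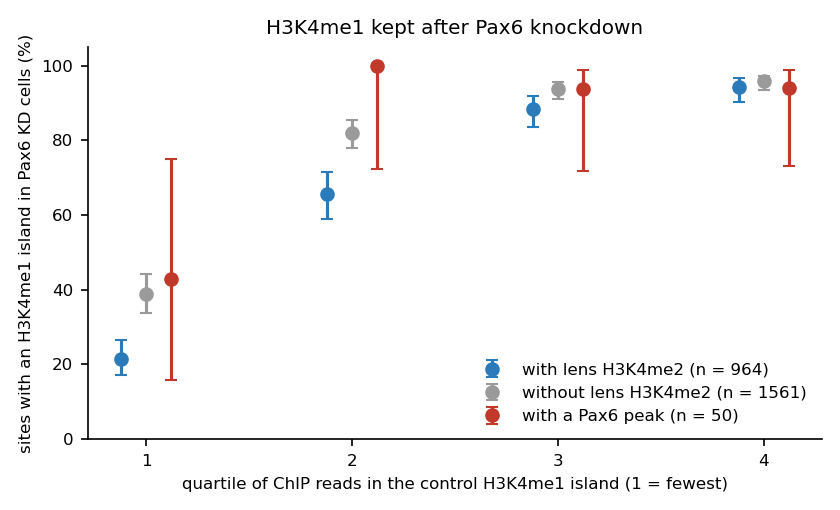
Share of sites with a control H3K4me1 island that also had one in Pax6 KD cells (vertical, percent), by quartile of ChIP reads in the control island (horizontal, 1 = fewest), for sites with lens H3K4me2, without it and with a Pax6 peak, with 95% Wilson intervals as bars. Each group is lowest in the first quartile, and sites without lens H3K4me2 lie above those with it, by 38.9% against 21.5% in the lowest quartile and 95.8% against 94.3% in the highest.

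Where an island was kept, reads and width both differed between the conditions, since islands were called separately in each, and no fixed region was compared. At the 1858 sites the median island width was 7.8 kb in control and 6.6 kb in KD cells, against 4.2 and 4.8 kb over all 17559 kept islands. The log2 ratio of reads per kb had a median of -0.09 (interquartile range -0.27 to 0.09) once the median of all kept islands, -0.31, was set to 0, and the log2 ratio of total island reads, set to 0 likewise, had a median of -0.32. The sign differed between both measures at 831 sites, so neither is read as a change of the mark at single sites. Reads per kb gave medians of -0.14 at the 44 kept sites with Pax6, -0.06 at promoter Pol2 and -0.08 at all Pol2 peaks.

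At the leading Pax6 site, 27.7 kb from Plekha1, the islands were of like width, with 299 reads in 9.8 kb in control and 226 reads in 9.6 kb in KD cells. Reads per kb were 30.51 in control and 23.54 in KD cells. With the median of all kept islands, -0.31, set to 0, the log2 ratio was -0.06, beside the median of -0.09 over all kept sites. The H3K4me2 fold of this site ranked at percentile 71.38 of its list in control and 74.55 in KD cells. The neighbour 30.2 kb from the start went from 81.16 to 86.18, and that at 10.1 kb from 71.61 to 42.43. The paper reports less H3K4me1 and H3K4me2 signal after knockdown at its Pax6-bound region upstream of Plekha1. Its values are read signals there, whereas separately called islands and peaks are compared here. At Limk2 the control island had 260 reads and no KD island was called, and the site near Gmpr had no island in either condition. The lowest ratios of reads per kb were near Rcor2, a CoREST corepressor gene (135 reads in 2.8 kb to 54 in 3.4 kb), and near Azin1 (162 in 2.2 kb to 115 in 4.0 kb). Those near Ripk3, near Cyth4 and in Dlgap1 followed, but the KD islands near Ripk3 and Cyth4 held more reads than the control ones, 66 against 32 and 215 against 176, in wider islands. The highest ratios, near Gm5805, Ptma and Zmiz1, all went with fewer reads in narrower KD islands, such as 171 in 8.4 kb to 76 in 2.4 kb near Ptma. The densest control islands without a KD island were at Gstm6 (41.5 reads per kb), Fcgr1 (41.2), Cdc42ep1, Fam19a3 (38.3) and Kif21b (36.3), and rest on as few as 23 reads, at Fam19a3.

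By gene list, the counts of sites in an island are set beside 1858 of 2525 kept over all sites. They are not split by control reads, and neighbouring sites of a gene can share an island, so they are not read as a trait of a list. The actin and adhesion genes kept it at 37 of 38 sites, with a site at Cnn3 in control cells alone and one at Itgb1 in KD cells alone. The matrix genes kept it at 23 of 26, the YAP and TEAD genes at 8 of 9 and the FGF and ERK feedback genes at 9 of 11. The TGF-β and BMP genes kept it at 11 of 17, with 0 of 2 at Id3, and the lens transcription factor genes at 6 of 7. Few sites were kept at the Ets genes (2 of 7), the AP-1 genes (0 of 3), Tshz2 (0 of 2) and Zfp536 (0 of 1), on small numbers.

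H3K4me2 stayed at nearly all sites. A KD H3K4me2 peak overlapped 2929 (97.7%, 97.1 to 98.1%), against 98.5% of all Pol2 peaks with control H3K4me2 and 82.5% of all control H3K4me2 peaks. Weighted to the same mix of fold and width quartiles, distal H3K4me2 peaks kept it in 97.8% with Pol2 and 97.0% without. The rank of the H3K4me2 fold within its list moved by a median of -2.59 percentile points (interquartile range -9.25 to 3.09), against -1.85 over all kept H3K4me2 peaks. The name of the control H3K4me2 peaks hints at pooled replicates, and the part of this in the result was not tested.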

How the data were processed

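The authors used Bowtie to align the ChIP-seq reads, on mm9, then MACS2 for the peaks of Pol2, Pax6, H3K4me2 and H3K4me3 and SICER for the H3K4me1 islands. The authors deposited, for each peak, a fold enrichment (a ratio to control) and −log10 p and q values. For each island they deposited ChIP and control read counts, a fold, a p-value and an FDR. Depth of the MACS2 libraries was not given in the sources used here. The Pol2 peaks were taken as deposited and set against GENCODE vM1 (51733 protein-coding transcript starts). Overlaps of at least 1 bp were counted with Python 3.11, pandas 2.3.3, numpy 2.4.6, scipy 1.17.1 and pysam 0.24.0, and the scripts were tested on simulated data. Shares carry 95% Wilson intervals. H3K4me1 change is the log2 ratio of island reads per kb, KD over control, minus its median over all kept islands. Words were searched on both strands in 300 bp windows, with the bases read from the mm9 genome, and no searched word contains another. The GC box, CCAAT and TTTGCAT, a part of the octamer, were added after the values were seen. CCAAT was in 34.4% of site windows against 32.4% at 2 kb, and TTTGCAT in 4.47% against 5.15%.

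Sites were named if they had the highest Pol2 fold (10, and 10 away from every start), the highest Pax6 q, the most H3K4me1 lost, the largest H3K4me1 change or the greatest width, and genes if they had the most sites or were in the lists. A site that met this rule is not reported here. The sites, gene lists and words were chosen with earlier results of these data known. Alternatives changed the distance limit, the overlap, the significance limits and the gene assignment. RNA-seq was not analysed here.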

Additional observations from a re-analysis of the deposited data

Results flagged for a closer look

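An H3K4me3 peak in Pax6 KD cells overlapped 30 of the distal Pol2 sites (1.00%, 0.70 to 1.42%), against 66.0% of all Pol2 peaks. The list is outside the comparisons above, and the rule had removed every site near H3K4me3 of control cells. Of the 30, 25 also had lens H3K4me2. The highest by KD H3K4me3 fold were a site near Gpi1 at the start of the antisense RNA Gm12762 (Pol2 fold 15.9), one near Samd9l with a Pax6 peak (Pax6 fold 6.82), one in an Atf7ip intron, one at a Selp exon and one near Tmem44. In the mirror image, 3117 sites were found when the KD H3K4me3 list replaced the control list in the rule, and 114 of these had a control H3K4me3 peak.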

How the results depend on the processing

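Of 42 alternatives over 11 results, 25 left the value within its counting interval or limit, 17 moved it and 0 turned a direction. Only the median changes of H3K4me1 and of H3K4me2 rank could turn a direction, since shares and counts have none. For the lens share, using every annotated start and keeping the sites away from all of them counted the same 1110 of 2726 sites. The number of sites ran from 2526 (5 kb limit) to 3244 (1 kb limit), with 2726 when every annotated start was used and 2908 when 50% of the Pol2 peak had to lie in H3K4me2. The lens H3K4me2 share became 44.1% at −log10 q of at least 5 for Pol2, 39.5% at that limit for lens peaks, 40.3% at 5 kb, 37.1% when lens peaks had to cover 50% of the Pol2 peak and 38.2% for CG ratios under 0.6. With 50% covered control H3K4me1 became 81.2%, its kept share 71.5% and kept H3K4me2 94.5%, and kept H3K4me2 was 97.0% at the q limit. Pax6 within 1 kb gave 2.83%. The H3K4me1 change was -0.12 relative to islands of the same width tercile and -0.32 for total island reads, and the H3K4me2 rank change -2.12 points by q. Counting all annotated genes put 41.4% inside a gene, and 3600 genes lay within 50 kb of a site. The AP-1 word was in 16.4% of windows of 100 bp to either side and 39.6% of 250 bp to either side, against 6.34% and 15.6% at 2 kb. Except where stricter limits or other windows change what is counted, the cause was not tested. The alternatives on CG ratio, word windows, the gene models Gm20388 and Fgfr2, island reads and the subset of chosen sites away from annotated starts were added after seeing the data. No library could be left out, since the labels give 1 for each list. No paired analysis was possible because the labels give each condition 1 library per mark. Unknown MACS2 depth limits every statement on absent peaks.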
